A study of Drosophila melanogaster with 3 samples.

Results

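Divergent promoters are stretches of DNA from which a pair of genes is read in opposite directions, and they were examined here among the binding sites of the protein encoded by CG14050. The sites came from chromatin immunoprecipitation followed by sequencing (ChIP-seq) of whole Drosophila melanogaster embryos aged 0 to 24 hours, from a transgenic line in which CG14050 is fused to eGFP. An antibody against GFP was used, and there were 3 biological replicates of 1 group, so regions were compared with regions and no condition with another. Whole embryos mix every cell type and stage of that window, so a peak cannot be assigned to a cell type. Members were the peaks of the authors' conservative list on chromosomes 2, 3 and 4 whose summit lay within 500 bp of transcription start sites (TSSs) of at least 2 protein-coding genes on opposite strands. There were 499 such peaks among 3515 in that list, or 17.8% of its 2811 autosomal peaks. The other autosomal peaks were 817 at single-gene promoters, 30 near several TSSs of 1 strand, and 1465 lying over 500 bp from any protein-coding TSS, called distal here.

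In a compact genome such as that of the fly, many genes of general cellular function lie head to head, with the minus-strand gene to the left and the plus-strand gene to the right of a short shared stretch. That stretch is typically depleted of nucleosomes and holds the core promoter words of both genes. Such promoters are known for the DNA replication-related element (DRE) bound by Dref, for Motif 1 bound by M1BP, and for words bound by the insulator protein BEAF-32, more than for the GAGA and TATA words of regulated genes.

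The stretches between the TSSs of 10 strongly bound pairs are shown because they are the DNA in which most of the summits lay. They were taken by falling signal from members found in all 3 replicates in which that stretch was at most 300 bp and free of annotated exons. Some pairs that met this rule, such as Mnat9/CG1792 and Reps/l(2)gd1, are not shown. Each is the plus strand of the RefSeq sequence of the dm6 build, written from the minus-strand gene's TSS on the left to the plus-strand gene's TSS on the right. Capitals mark any of the 12 words searched on both strands, which are spelled out with the sequence results further on.
CG7601/CIA30: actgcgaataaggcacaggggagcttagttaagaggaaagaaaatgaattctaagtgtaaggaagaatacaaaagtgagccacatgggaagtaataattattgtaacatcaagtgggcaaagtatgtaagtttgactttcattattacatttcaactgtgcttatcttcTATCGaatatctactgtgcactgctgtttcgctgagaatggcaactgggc
Art3/mRpS10: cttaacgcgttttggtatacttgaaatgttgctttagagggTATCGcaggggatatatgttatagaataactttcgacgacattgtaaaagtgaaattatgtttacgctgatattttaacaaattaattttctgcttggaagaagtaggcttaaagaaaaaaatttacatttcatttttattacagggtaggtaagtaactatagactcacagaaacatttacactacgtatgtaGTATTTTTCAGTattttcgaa
Chro/Ssl1: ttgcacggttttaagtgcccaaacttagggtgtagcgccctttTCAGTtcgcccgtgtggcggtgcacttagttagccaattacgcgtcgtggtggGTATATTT
Tcs5/CHMP2B: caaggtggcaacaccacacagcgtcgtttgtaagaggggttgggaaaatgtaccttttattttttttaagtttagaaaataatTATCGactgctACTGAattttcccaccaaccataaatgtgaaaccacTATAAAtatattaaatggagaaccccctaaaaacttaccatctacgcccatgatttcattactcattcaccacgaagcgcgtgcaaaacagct
CG13390/CG17294: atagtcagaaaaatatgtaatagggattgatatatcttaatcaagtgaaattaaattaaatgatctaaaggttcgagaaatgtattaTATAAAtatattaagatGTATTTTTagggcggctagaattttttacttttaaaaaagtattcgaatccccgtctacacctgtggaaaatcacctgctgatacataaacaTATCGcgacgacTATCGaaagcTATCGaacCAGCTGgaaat
Mkk4/SLIRP2: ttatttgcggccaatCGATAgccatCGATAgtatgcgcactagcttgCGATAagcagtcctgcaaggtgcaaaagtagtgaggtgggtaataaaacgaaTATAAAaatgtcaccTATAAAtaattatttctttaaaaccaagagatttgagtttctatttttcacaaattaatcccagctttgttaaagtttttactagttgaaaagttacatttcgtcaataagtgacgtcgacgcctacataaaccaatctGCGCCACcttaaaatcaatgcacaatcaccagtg
CG3437/CG3552: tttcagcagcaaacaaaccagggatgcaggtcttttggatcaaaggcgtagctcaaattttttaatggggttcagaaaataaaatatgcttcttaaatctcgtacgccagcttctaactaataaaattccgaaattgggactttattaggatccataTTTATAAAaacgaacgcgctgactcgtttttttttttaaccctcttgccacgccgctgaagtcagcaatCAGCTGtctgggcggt
fws/Lamtor3: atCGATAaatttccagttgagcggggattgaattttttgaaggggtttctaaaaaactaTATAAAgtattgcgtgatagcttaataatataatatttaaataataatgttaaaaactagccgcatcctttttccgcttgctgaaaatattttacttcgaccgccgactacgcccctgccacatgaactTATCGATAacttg
Atat/Shc: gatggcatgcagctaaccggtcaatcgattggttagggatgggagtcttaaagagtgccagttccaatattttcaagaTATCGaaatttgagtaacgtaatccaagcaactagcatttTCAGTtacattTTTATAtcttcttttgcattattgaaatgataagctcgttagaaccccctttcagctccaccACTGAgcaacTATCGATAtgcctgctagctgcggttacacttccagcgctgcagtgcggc
brm/Arl1: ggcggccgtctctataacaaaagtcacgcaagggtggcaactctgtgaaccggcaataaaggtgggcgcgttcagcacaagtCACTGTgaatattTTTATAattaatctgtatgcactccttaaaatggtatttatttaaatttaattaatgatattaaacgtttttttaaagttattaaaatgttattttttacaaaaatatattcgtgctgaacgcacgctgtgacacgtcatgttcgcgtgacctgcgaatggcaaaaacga

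The CG7601/CIA30 stretch covers chr3R:29736746-29736964 (219 bp) with the summit at its base 103. The Art3/mRpS10 stretch covers chr3R:15229409-15229664 (256 bp) with the summit at base 117, and the fws/Lamtor3 stretch covers chr2L:17481030-17481230 (201 bp) with the summit at base 108. In each of these 3 the summit stood near the middle, away from both TSSs. The Chro/Ssl1 stretch, chr3L:22878985-22879088 (104 bp), differed in that its summit lay outside it, at 22878900 in the 5′ UTR of Chro. The fws/Lamtor3 and Atat/Shc stretches hold a complete DRE word near the plus-strand gene. The Mkk4/SLIRP2 stretch holds 3 copies of the BEAF core near the minus-strand gene, and the CG13390/CG17294 stretch holds 3 near the plus-strand gene.

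The strongest member was the promoter of CG7601 and CIA30, an assembly factor of respiratory complex I. It had a signal of 490 in replicate 1, 574 in replicate 2 and 579 in replicate 3, and 1566 in the conservative list. The signal is the authors' measure of peak height on a scale that no source used here gives, and values of different lists are not on a shared scale. The promoter of mRpS23, a mitochondrial ribosomal protein, and CenG1A, a GTPase-activating protein for Arf GTPases, had 545 in replicate 1, 509 in replicate 2 and 497 in replicate 3. Within its own list it ranked 1st among members in replicate 1, 3rd in replicate 2 and 5th in replicate 3. The promoter of Art3, an arginine methyltransferase, and mRpS10, another mitochondrial ribosomal protein, had 423 in replicate 1, 494 in replicate 2 and 583 in replicate 3. Chro encodes Chromator, a chromatin protein of interbands and the spindle, and Ssl1 a subunit of the transcription factor TFIIH. Their shared promoter had 371 in replicate 1, 513 in replicate 2 and 462 in replicate 3. The promoter of Tcs5 and CHMP2B, the second a subunit of the ESCRT-III membrane-remodelling complex, had 351 in replicate 1, 460 in replicate 2 and 516 in replicate 3.

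Further strong members paired genes of many kinds. Fbw5, an F-box protein, and CG9147 shared a peak of 1262 in the conservative list, with 370 in replicate 1, 424 in replicate 2 and 477 in replicate 3. Pex11ab, a peroxisome division protein, and CG8320 start 33 bp apart and shared a peak of 1229, the strongest on arm 2R. The peaks of mRpL23/CG9004 and CG1275/Elp5, whose TSSs lie 50 and 33 bp apart, reached 1090 and 1020. Elp5 is a subunit of the Elongator complex, which acts on tRNAs. At all 3 of these short-spaced promoters the summit lay outside the stretch between the TSSs. The tank/CG12194 promoter had 234 in replicate 1, 462 in replicate 2 and 303 in replicate 3, and ranked 19, 5 and 19 among members within those lists. Mkk4/SLIRP2, CG3437/CG3552 and fws/Lamtor3, the last a pair of a Golgi tethering factor and a subunit of the lysosomal Ragulator complex, had 972, 918 and 913 in the conservative list.

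**Figure D1:**
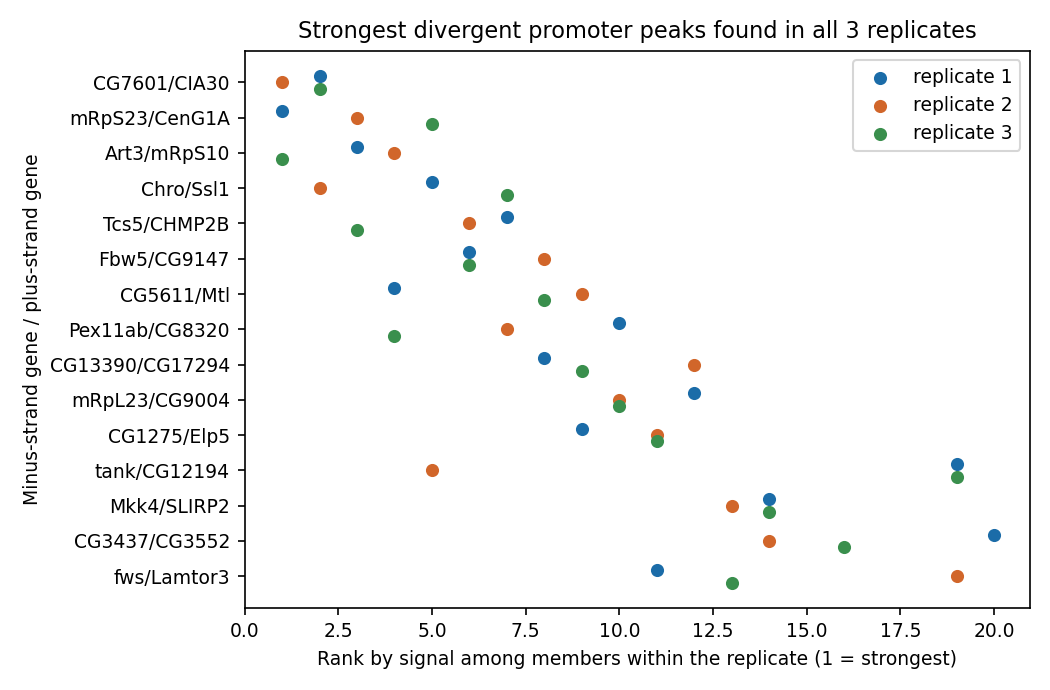
Rank by signal among members within each replicate (1 is the strongest, linear axis) of the 15 strongest divergent promoter peaks found in all 3 replicates, 1 point per replicate, ordered by signal in the conservative list. All points lie at rank 20 or stronger, and tank/CG12194 ranked 5 in replicate 2 and 19 in the other replicates.

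Over all 499 members the signal in the conservative list had a median of 149 (quartiles 104 and 261), against 139 at single-gene promoters and 126 at distal peaks. Divergent peaks were 23.8% of the 563 autosomal peaks of highest signal (134 peaks, exact 95% interval 20.3 to 27.5%) and 14.1% of the 562 of lowest signal (79 peaks, 11.3 to 17.2%). Single-gene promoter peaks were also a larger share of the strongest, at 34.1%, than of the weakest, at 27.8%. Such intervals cover counting error only. The number of sequenced reads was not used, and the number of ranked regions per replicate, between 46992 and 49504, was the only measure of depth. The median percentile of signal within each replicate's own thresholded list was 55.8 at divergent promoters against 49.3 at single-gene promoters in replicate 1. It was 55.9 against 53.1 in replicate 2, and 54.8 against 53.0 in replicate 3. The difference averaged 3.71 ± 2.47 percentile points (SD, n = 3) and was positive in 3 of 3 replicates (exact sign-flip permutation test over replicates, two-sided, p = 0.25). With 3 replicates 0.25 is the smallest p this test can give, so no comparison here could pass 0.05.

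The same rule applied to each replicate's thresholded list found 291, 380 and 363 peaks at divergent promoters in replicates 1, 2 and 3 (mean 345 ± 47.2 SD). These were 16.7%, 19.7% and 19.9% of each list's autosomal peaks. A member was called found in a replicate if a peak of that replicate's thresholded list overlapped it by at least 1 bp. By this measure 54.5% of members were found in replicate 1, 73.7% in replicate 2 and 69.5% in replicate 3. The shares for single-gene promoter peaks were 58.0%, 67.9% and 66.3% in the same replicates. Members were thus found less often than single-gene peaks in replicate 1 and more often in the other replicates, and the difference averaged 1.84 ± 4.81 points (2 of 3 positive, exact permutation p = 0.75). It turned to −1.65 points in peaks with an irreproducible discovery rate of at most 0.001 and to −0.155 without replicate 2. The replicates did not enter the conservative list alike. Every region of its ranked list carries the coordinates of a pair of matched peaks, and these coincided exactly with regions of replicate 2 for 63.4% of 63709 regions and with regions of replicate 3 for 66.2%, but with regions of replicate 1 for at most 1 region.

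Of the 499 members, 228 were found in all 3 replicates (45.7%, exact 95% interval 41.3 to 50.2%), 104 in 2, 95 in 1 and 72 in none. Their median signals in the conservative list were 280, 139, 109 and 83.9. Of the 104 found in 2 replicates, 72 were missed by replicate 1 alone, 12 by replicate 2 alone and 20 by replicate 3 alone. A miss was rarely an absence of any region, since 483 members overlapped a region of the longer ranked list in every replicate. By replicate this held for 488, 496 and 495 of the 499 members. It held for 794, 813 and 813 of the 817 single-gene promoter peaks, so it was not particular to members. The conservative list was matched from regions of replicates 2 and 3, so overlap with those replicates was largely set in advance. Across members the signals of the replicates ranked alike, with Spearman rho of 0.78 for replicates 1 and 2 (485 members), 0.79 for replicates 1 and 3 (484) and 0.81 for replicates 2 and 3 (494). These are descriptions over members, which share libraries and are not replicates.

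Members were not all separate promoters. They fell on 463 distinct gene pairs, and 33 had a stronger conservative summit within 300 bp. Of the 27 members with a signal under 30, 25 were such second summits. The lowest were a second summit at the shared promoter of Rrp1, a DNA repair endonuclease, and gammaTub23C at 2.02, 1 of 3 summits at Nup98-96/mbc at 2.42, and a second at Pex16/Pex14 at 4.10. The strongest and weakest peaks at Nup98-96/mbc overlapped the same replicate regions, with 37.5 in replicate 1, 74.3 in replicate 2 and 61.7 in replicate 3. Leaving out second summits left 466 members with a median signal of 158.

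Divergent arrangement and binding were next compared from the annotation alone, without reference to peaks. A gene counted as bound where at least 1 of its TSSs had a summit within 500 bp. In the conservative list 29.0% of the 3301 autosomal protein-coding genes with a divergent partner within 500 bp were bound (958 genes), against 8.60% of the 8066 genes with no neighbouring TSS (694 genes). The share over all 11749 autosomal protein-coding genes was 14.5%. Genes with a divergent partner were bound in 18.9% of cases in replicate 1, 23.5% in replicate 2 and 22.5% in replicate 3. Genes with no neighbouring TSS were bound in 5.93%, 6.34% and 6.46% of cases in the same replicates. The groups did not overlap: the difference was 15.4 ± 2.18 points and positive in 3 of 3 replicates (exact permutation p = 0.25, the smallest possible). Since 1 summit at a divergent promoter can bind both genes, the genes of a pair are not independent. A gene with a partner is also counted as bound by a summit of its partner's promoter. This counting alone raises the share of such genes, and it was not corrected for. Expression of the genes was not measured, and its part in this difference was not tested.

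**Figure D2:**
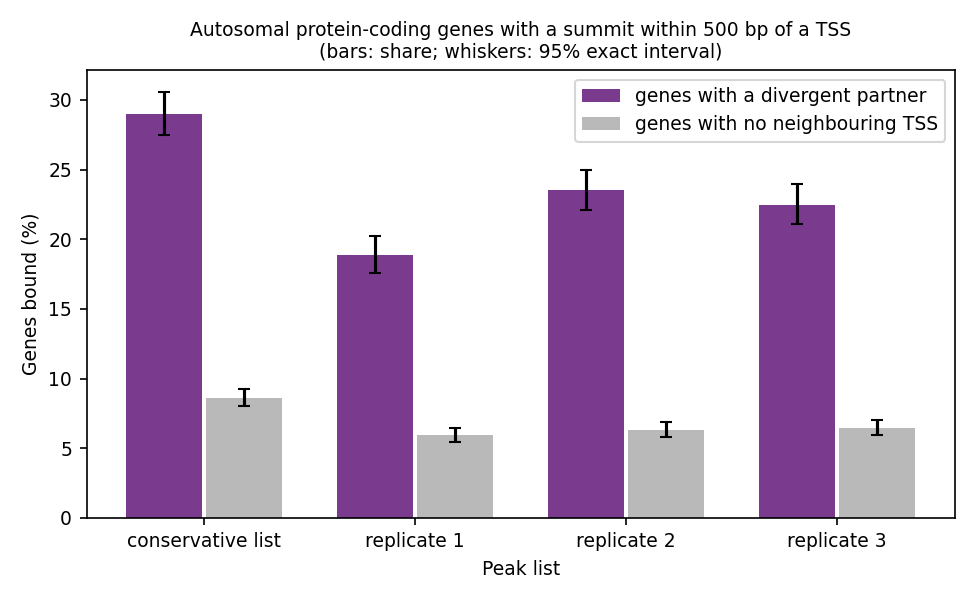
Share of autosomal protein-coding genes with a summit within 500 bp of a TSS (percent, axis from 0), for genes with a divergent partner (left bars) and genes with no neighbouring TSS (right bars), in the conservative list and each replicate; whiskers are exact 95% intervals for counting error. Genes with a divergent partner stood at 18.9 to 29.0% and the others at 5.93 to 8.60%.

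The ranked regions behind the conservative list gave the same order. Of 1305 autosomal ranked regions at divergent promoters, 38.2% passed into the conservative list, which is the share that made the 499 members. Of 6976 at single-gene promoters 11.7% passed, of 45262 distal regions 3.24%, and of all 53704 autosomal regions 5.23%. These shares come from the list that chose the members and were not tested.

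The rule sets how far a summit can lie from either TSS and so bounds the geometry of the pairs, whose values are given as a description. Of the 499 members, 488 lay at head-to-head pairs, and at the other 11 the transcribed parts overlapped at their starts. Head-to-head TSSs lay a median of 284 bp apart (quartiles 217.5 and 379, range 2 to 670). The summit stood between the TSSs in 402 members (80.6%, exact 95% interval 76.8 to 83.9%). By the same rule this share was 82.3 ± 1.95% over the 3 replicate lists (SD, n = 3). The median summit lay 56.25 bp from the midpoint of the pair, 95 bp from the nearer TSS and 194 bp from the farther one. It was 133.5 bp upstream of the plus-strand TSS and 132.5 bp upstream of the minus-strand TSS, so neither strand was favoured. At single-gene promoters the summit lay a median of 143 bp upstream. In 78.4% of members the summit was the centre of the deposited peak to within 1 bp, so its position there holds no more than the peak edges do. Member widths had a median and both quartiles of 330 bp, so most members had this 1 width. For a centred peak of fixed width, the summit and the edges give the same position.

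The position of the summit varied with the spacing. Where TSSs were 201 to 300 bp apart, 90.8% of 173 members had the summit between them, a median of 34.5 bp from the midpoint and 94 bp upstream of the nearer TSS. Where they were 1 to 100 bp apart only 26% of 50 members did, and the median summit lay 48.5 bp inside the transcribed side of the nearer TSS and 102.5 bp upstream of the farther one. At 401 to 500 bp the median summit lay 94.25 bp from the midpoint. It was 129 bp upstream of the nearer TSS and 313 bp upstream of the farther. Above 200 bp both distances grew with the spacing, that to the nearer TSS from 94 to 146 bp and that to the farther from 163 to 394.5 bp across the bins. The nearer TSS is set by the summit itself, and a summit far from both TSSs could not be a member.

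**Figure D3:**
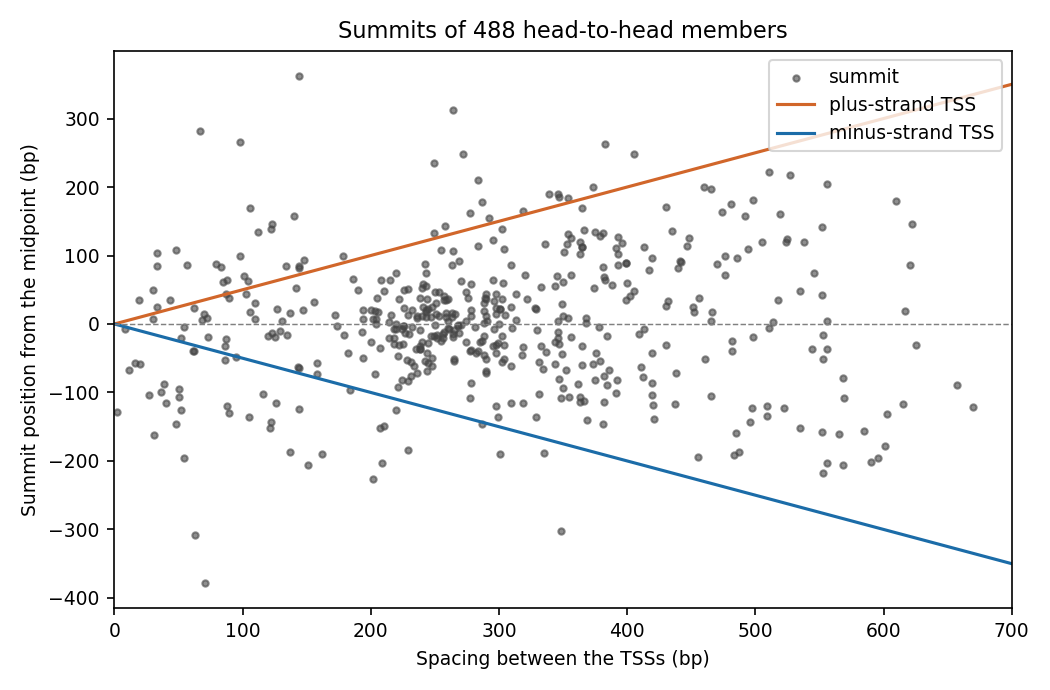
Position of the summit from the midpoint of the pair (bp, vertical) against the spacing between the TSSs (bp, horizontal) for the 488 head-to-head members; each point is 1 member and the lines mark the plus-strand and minus-strand TSSs. Summits cluster at the midpoint for spacings of 201 to 300 bp, spread beyond the TSSs below 200 bp, and lie farther from the midpoint at longer spacings.

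Spacing also separated bound from unbound pairs. All 2125 head-to-head autosomal pairs up to 1000 bp apart were taken from the annotation, and a pair was called bound if a summit lay within 300 bp of its midpoint, a window of equal size for every spacing. In the conservative list 38.2% of pairs 201 to 300 bp apart were bound (165 of 432, exact 95% interval 33.6 to 43.0%), against 18.6% of pairs 1 to 100 bp apart and 17.3% of pairs 101 to 200 bp apart. Above 300 bp the share was 28.7%, 23.2%, 16.3% and 9.45% in bins ending at 400, 500, 750 and 1000 bp. In the bins ending at 750 and 1000 bp the TSSs can lie outside the window. A summit near such a TSS can leave its pair counted as unbound, which lowers these shares and was not corrected for. Over all pairs it was 23.2%. In the replicates 24.5%, 31.5% and 30.1% of pairs 201 to 300 bp apart were bound, against 11.7%, 13.9% and 13.9% of pairs up to 200 bp apart. The difference was 15.5 ± 2.43 points, positive in 3 of 3 replicates (exact permutation p = 0.25). Against pairs 301 to 500 bp apart it was 10.1 ± 0.70 points, again positive in 3 of 3 (exact permutation p = 0.25). These bins were compared after the shares had been seen.

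**Figure D4:**
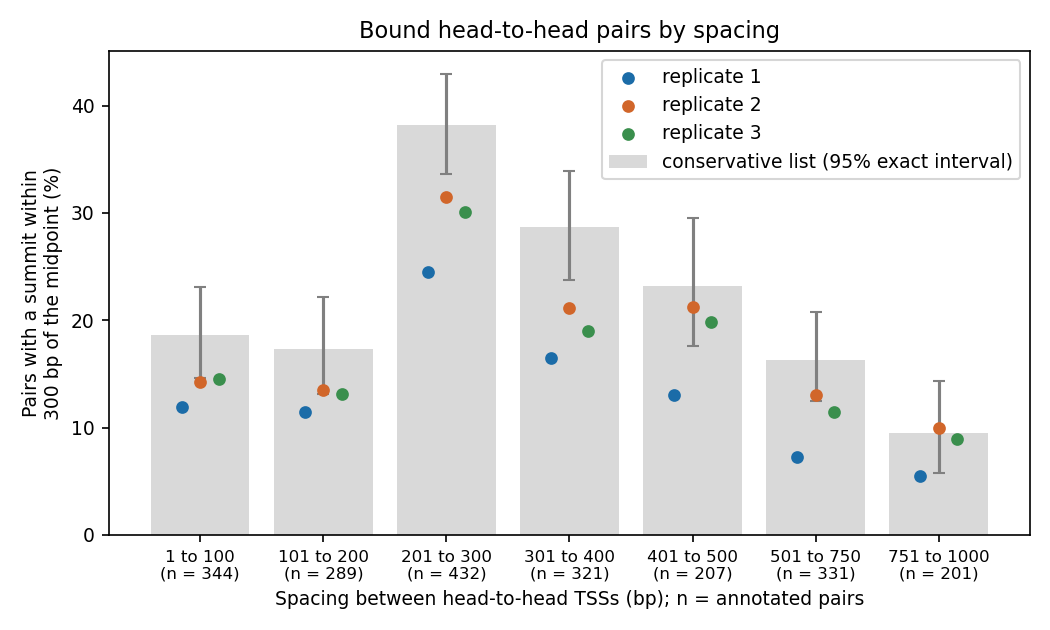
Share of annotated head-to-head pairs with a summit within 300 bp of the midpoint (percent, axis from 0) by spacing of the TSSs (bp). Grey bars are the conservative list with exact 95% intervals and points are the 3 replicates; every replicate peaked at 201 to 300 bp, at 24.5 to 31.5%.

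The summits of members stood in AT-rich DNA. Within 50 bp of the summit the G and C content had a median of 29% in members (quartiles 24 and 36), 33% at single-gene promoters and 32% at distal peaks. In the replicate lists it averaged 31.1%, 30% and 31.2% at divergent promoters, against 35.2%, 33.0% and 34.2% at single-gene promoters. The difference was −3.38 ± 0.62 points, negative in 3 of 3 replicates (exact permutation p = 0.25). At 329 members (65.9%) the summit was intergenic, at 100 in a 5′ UTR and at 60 in an intron. At single-gene promoters 45.9% of summits were intergenic and 33.2% intronic.

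The 12 words searched on both strands within 50 bp of the summit were the DRE (TATCGATA), the BEAF core (CGATA, which lies inside the DRE), the Motif 1 core (GGTCACAC), the Motif 6 core (GTATNTTT), the first E-box (CAGCTG), the second E-box (CACGTG), the word of the GAGA factor (GAGAG), the word of the TATA box (TATAAA), the Initiator core (TCAGT), a CTCF core (GTGGCGC), the hexamer ACAGTG, and the hexamer AATAGT. A match is a description of the letters and not evidence of a bound factor. The TATA word was in 28.2%, 31.6% and 29.2% of divergent promoter peaks of replicates 1, 2 and 3, against 20.1%, 21.3% and 20.5% of single-gene promoter peaks. The difference was 9.02 ± 1.18 points. In the conservative list the TATA word was in 27.3% of members, 21.1% of single-gene promoter peaks and 22.9% of distal peaks. The BEAF core was in 22.0%, 17.4% and 23.4% of divergent peaks, against 14.8%, 14.1% and 14.6% of single-gene peaks, a difference of 6.40 ± 2.84 points that turned to −0.848 with a TSS distance of 250 bp. GAGA was in 5.15%, 5% and 6.34% of divergent peaks, against 10.4%, 8.75% and 9.98% of single-gene peaks, a difference of −4.22 ± 0.91 points. With a window of 100 bp on each side the BEAF core difference was 11.6 points, GAGA −9.47 and the Initiator core −9.74, and with a TSS distance of 250 bp GAGA was −1.25. The hexamer AATAGT (1.71 points), the Motif 6 core (1.61) and CAGCTG (0.607) were more frequent, and the Initiator core (−2.51) less frequent, at divergent peaks in 3 of 3 replicates. These 7 words each had an exact permutation p of 0.25 and an adjusted p of 0.43 over the 12 words, and the other 5 did not differ 1 way in all replicates. The TATA word is rich in A and T and the GAGA and CTCF words are not. Among peaks of 30 to 40% G and C the difference of CAGCTG turned to −0.981 points, the TATA difference fell to 3.36 points and that of the Motif 6 core to 0.306, and these 3 words no longer differed 1 way in all replicates. CAGCTG turned under 2 other alternatives as well.

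**Figure D5:**
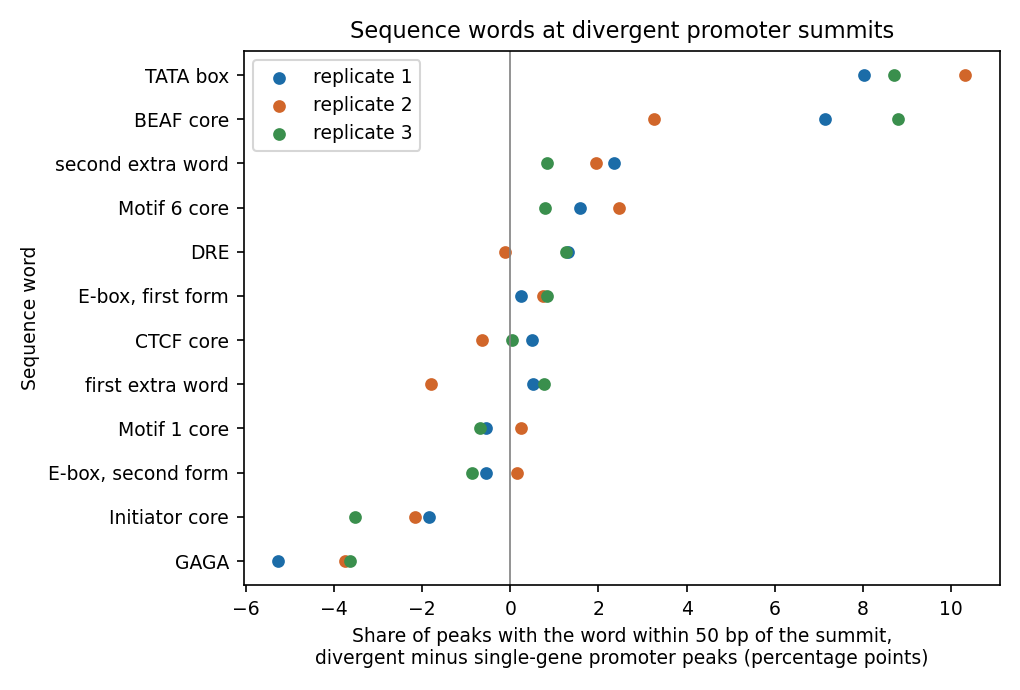
Difference in the share of peaks with each of the 12 words within 50 bp of the summit, divergent minus single-gene promoter peaks (percentage points, horizontal), 1 point per replicate. The first form of the E-box is CAGCTG and the second CACGTG; the first extra word is ACAGTG and the second AATAGT. The TATA word lies to the right and GAGA to the left of 0 in every replicate.

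Bound and unbound pairs were also set side by side at the annotated midpoint, whose position does not depend on where a summit was called. The pairs were not matched for spacing, and bound pairs were less often up to 200 bp apart than unbound pairs. Where TSSs lie up to 100 bp apart, a window of 100 bp around the midpoint reaches both of them. The part of spacing in the differences below was not tested. Of the 1593 head-to-head pairs up to 500 bp apart, 419 were bound in the conservative list and 1174 were not. In the 100 bp around the midpoint the G and C content averaged 30.5%, 29.8% and 29.9% in pairs bound in replicates 1, 2 and 3, against 33.8%, 34.2% and 34.1% in pairs not bound in that replicate. The difference was −3.94 ± 0.61 points (negative in 3 of 3, exact permutation p = 0.25). The BEAF core was in 17.2% of bound and 28.9% of unbound pairs in the conservative list, and in 14.3% of 15978 windows of the same length placed 150 bp upstream of every TSS. In the replicates the difference was −12.4 ± 1.62 points. The DRE was in 3.10% of bound, 6.56% of unbound and 0.926% of all promoter windows, with a replicate difference of −3.59 ± 0.54 points. The Motif 1 core was in 1.19% of bound, 4.0% of unbound and 0.582% of all promoter windows, with a difference of −2.15 ± 0.10 points. The TATA word went the other way, in 30.1% of bound, 21.9% of unbound and 19.0% of all promoter windows, with a difference of 6.05 ± 2.26 points. Each of these 4 kept 1 sign in 3 of 3 replicates (exact permutation p = 0.25, adjusted p = 0.38 over 12 words). Bound pairs therefore differed from unbound pairs in the opposite direction for the BEAF core from that of divergent against single-gene summits.

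The width of the window mattered for these words. In 300 bp around the midpoint the BEAF core was in 58.5% of bound and 60.5% of unbound pairs, with a replicate difference of −2.40 ± 2.18 points that was negative in 2 of 3 (exact permutation p = 0.50). The DRE was in 15% of bound and 15.8% of unbound pairs in that window, with a difference of −1.20 ± 1.10 points, negative in 3 of 3. The Motif 1 core, at −4.63 ± 0.94 points, and the TATA word, at 7.43 ± 2.83 points, held their direction in 3 of 3. The Initiator core differed by −5.07 ± 1.36 points in 100 bp and by −7.65 ± 1.70 points in 300 bp, negative in 3 of 3 at both widths. CAGCTG turned with the width, at −1.74 ± 0.23 points in 100 bp and 5.45 ± 1.42 points in 300 bp, each 1 way in 3 of 3. Each of these 3-of-3 differences had an exact permutation p of 0.25. In 300 bp the hexamer ACAGTG was in 23.9% of bound and 16.5% of unbound pairs. Its replicate difference at that width was 7.22 ± 1.96 points, positive in 3 of 3 (exact permutation p = 0.25). In 100 bp it was in 6.21% of bound and 5.11% of unbound pairs. The difference there was 0.85 ± 1.22 points, negative in 1 of 3 (exact permutation p = 0.50). Within 250 bp of members' summits, 16 of 102 DRE matches lay within 50 bp, 59 between 50 and 150 bp, and 27 farther out. For the TATA word 194 of 636 lay within 50 bp, 251 between 50 and 150 bp, and 191 farther out. The innermost bin covers less sequence than either of the others. These counts have no background beside them, so they do not show whether a word lay nearer the summit than elsewhere. Stretches between TSSs that were free of exons and 60 to 300 bp long were also searched, leaving out arm 2R. Of these 179 stretches, 25 held a DRE (14.0%), 97 a BEAF core (54.2%) and 79 a TATA word (44.1%). In 300 bp around the midpoint, unbound pairs held them in 15.8%, 60.5% and 49.8% of cases. That window is as long as the longest of the stretches, so the shares are not on equal lengths. The shares in the stretches are thus not read as particular to members.

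The genes of members were grouped by 15 lists of cellular machinery. For each list the count of bound genes with a divergent partner is read against 29.0% of all such genes, and no list was tested. Cytosolic ribosomal proteins stood highest, with 23 of 32 bound (71.9%), and their genes with no neighbouring TSS also stood high, with 19 of 44 bound (43.2%) against 8.60% over all genes of that kind. The strongest was RpL7, whose TSS lies 30 bp from that of Ripalpha, with 136 in replicate 1, 163 in replicate 2 and 202 in replicate 3. RpS27, paired with the nuclear pore gene Nup37, had 110 in replicate 1, 143 in replicate 2 and 149 in replicate 3. The 26 members at these genes had a median G and C content of 43% at the summit, against 29% over all members, and 21 were found in replicate 1 against 19 each in replicates 2 and 3. Among the 15 members with a complete DRE within 50 bp of the summit were those of RpL28/eIF1, RpS25/CG4820, RpL41/NaCP60E and RpL34a/Trmt61.

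Mitochondrial ribosomal protein genes supplied 2 of the 3 strongest members but as a list were near the background, with 13 of 46 bound (28.3%). Genes of oxidative phosphorylation were bound in 7 of 33 cases (21.2%), the strongest being ND-MWFE, a complex I subunit, with 74.2 in replicate 1, 114 in replicate 2 and 142 in replicate 3 at its promoter shared with the peptidase gene TppII. Proteasome genes were bound in 4 of 21 cases (19.0%), among them Rpn3, a subunit of the proteasome lid. Splicing genes were bound in 3 of 21 (14.3%). These shares did not lie above that of all genes with a divergent partner.

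Genes of chromatin proteins were bound in 8 of 13 cases with a divergent partner (61.5%) and 1 of 10 without a neighbouring TSS. Besides Chro they included brm, the ATPase of the Brahma remodelling complex, which shares its promoter with the Golgi GTPase gene Arl1 and had 217 in replicate 1, 312 in replicate 2 and 271 in replicate 3. Cp190, an insulator protein, paired with CG4338 at 376 in the conservative list, and E(z), the Polycomb methyltransferase, with Cnep1r2 at 371. Dref and M1BP, which encode the proteins that bind the DRE and Motif 1, were members as well. The Dref/RpL13 peak had a signal of 185 and was found in all 3 replicates, while the M1BP/CG8202 peak had 134 and was found in none. Mediator genes, whose products link activators to RNA polymerase II, were bound in 9 of 17 cases (52.9%). MED27, paired with elm, had 83.3 in replicate 1, 109 in replicate 2 and 161 in replicate 3.

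Genes of endosome and vesicle traffic were bound in 22 of 47 cases (46.8%) against 2 of 34 without a neighbouring TSS (5.88%). The strongest of this list was alphaCOP, a coat subunit of Golgi vesicles, with 143 in replicate 1, 239 in replicate 2 and 230 in replicate 3. CHMP2B, fws and Arl1, whose peaks were stronger, were not in the list. Fur1/Vps33B, the second gene a vesicle tethering factor, had 113 in replicate 1, 134 in replicate 2 and 117 in replicate 3. Nuclear pore genes were bound in 5 of 13 cases, aminoacyl-tRNA synthetase genes in 7 of 19, RNA polymerase and basal factor genes in 12 of 33 and translation factor genes in 7 of 20. The promoter of GluProRS, a synthetase of 2 specificities, and AP-1sigma had 92.3 in replicate 1, 115.3 in replicate 2 and 135 in replicate 3. DNA replication genes (3 of 11), chaperone genes (3 of 9) and mitochondrial import genes (1 of 3) had few genes with a divergent partner to set against the background. Only 10 members had a listed gene on both strands. Among these were Chro/Ssl1, RpS27/Nup37, RpL28/eIF1 and RPA1/Mcm2, the last a pair of DNA replication genes.

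The members lay on every large autosomal arm in like proportion. There were 117 on 2L, 110 on 2R, 122 on 3L and 150 on 3R, or 16.4 to 19.4% of each arm's peaks, and 20.9 to 25.3% of the head-to-head pairs of each arm were bound. On chromosome 4 0 of 9 peaks were members and 0 of 11 pairs were bound. As approximate upper limits, 3 divided by the number counted gives 33.3% for the peaks and 27.3% for the pairs. Most members had exactly 2 genes within reach, and 28 had more. The extreme was a peak of 270 on arm 3R with 10 annotated genes within 500 bp, the separate transcription units of the trans-spliced mod(mdg4) locus. At the edge of the rule, the members whose farther TSS was nearest to 500 bp were CG10435/Pbp95 (signal 140), CG14968/ZnT63C (600) and alc/CG44286 (88.2). Just outside it, at 503, 503 and 512 bp, were peaks at CG3735/Taldo (115.4), CG12929/RpL31 (137) and CG31510/vig2 (170).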

How the data were processed

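ChIP-seq peak lists of 3 biological replicates of 1 group were used, with coordinates on dm6 per the labels. The authors' aligner and their peak caller were not named in any source used here, and the control library was not used here. Each deposited region has a signal, the authors' measure of peak height, on a scale not shared between lists, so ranks and percentiles were formed within a list. The −log10 of the irreproducible discovery rate (IDR), the expected share of irreproducible regions, was deposited by the authors for ranked regions. From the values, thresholded lists held regions with an IDR of at most 0.01. The deposited descriptions name all 3 alignments as inputs of the across-replicate lists. By the coordinates of matched peaks, the list of 3219 peaks paired replicates 1 and 2, the list of 3247 replicates 1 and 3, and the conservative list replicates 2 and 3. The list of 3534 peaks matched each replicate in at most 2 regions.

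TSSs came from Ensembl BDGP6.54 transcripts (release 115) and sequence from RefSeq of the same build; no peak ended past an arm's end. The minus-strand and plus-strand TSS nearest to the summit defined a pair. Words were searched within 50 bp of the summit or the midpoint. Shares have exact (Clopper-Pearson) 95% intervals, except for the approximate limits on chromosome 4. Differences were formed within each replicate and tested by exact sign flips over the 3 replicates (8 arrangements), and p-values over the 12 words were adjusted by the Benjamini-Hochberg method. The replicates are called biological in the labels, so the spread between them is that of these samples. Classification and tests were checked on simulated data. Named members were drawn from the 15 strongest found in all replicates, the 2 strongest of each gene list, the 3 nearest to either side of 500 bp, the strongest of each arm, the 3 lowest and those with most genes; other names (members of chromatin genes, and of the DRE) were chosen after their values were seen. The members and lists were chosen with earlier results of these data known. Tools were Python 3.11.15, numpy 2.4.6, pandas 2.3.3, scipy 1.17.1, statsmodels 0.14.6 and matplotlib 3.10.9.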

Additional observations from a re-analysis of the deposited data

How the results depend on the processing

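The share of genes bound, divergent minus single-gene, stayed positive under all 10 alternatives (11.6 to 19.3 points), and so did the signal percentile under all 8 run (1.10 to 13.7 points). The G and C difference stayed negative under all 6 (−5.60 to −2.60 points), and 7 or 8 words differed 1 way in 3 of 3 replicates under all 4, but not always the same words. TATA, Motif 6 and CAGCTG lost this among peaks of 30 to 40% G and C, BEAF and AATAGT at a TSS distance of 250 bp, Motif 6 and AATAGT with 100 bp on each side, and CAGCTG at an IDR of at most 0.001. The number of members was 319 with a TSS distance of 250 bp and 291 in the list of replicate 1. The share found in all 3 replicates was 52.7% at 250 bp, 52.4% in the list of 3219 peaks, 53.0% in the list of 3247 and 61.9% with an IDR of at most 0.001, a setting that keeps fewer peaks. The share of summits between the TSSs was 78.5% at 1000 bp, 74.7% with the 5′-most TSS of each gene, 82.9% and 83.0% in the lists of 3219 and 3247, and 82.6% at an IDR of at most 0.001. The recovery difference turned negative at an IDR of at most 0.001 (−1.65 points). With 1 replicate left out it ranged from −0.155 (without replicate 2) to 4.51 (without replicate 1), and the cause was not tested. Over all 13 alternatives its highest values were 8.22 points at 250 bp and 6.98 in the list of 3247. The BEAF core difference was −0.848 points at 250 bp, and CAGCTG was −0.767 at 250 bp, −0.352 at an IDR of at most 0.001 and −0.981 among peaks of 30 to 40% G and C. Leaving out second summits and a midpoint window of 150 bp were chosen after seeing the data, and neither turned a sign. The difference between pairs 201 to 300 bp and up to 200 bp apart was 16.4 points with that window. With 1 replicate left out it lay between 14.5 and 16.9 points. It was not computed without second summits. Signal was not compared in the other across-replicate lists, which was planned and not run. No paired analysis of sample groups was possible because there is 1 group, and peak classes were compared within each replicate. With 3 replicates, no exact test here could reach 0.05, and reads per replicate are unknown.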
